A study of Homo sapiens with 4 samples.

Results

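The peroxiredoxins and the thioredoxin system were described here by 10 genes: the 6 peroxiredoxins PRDX1 to PRDX6, thioredoxin (TXN), thioredoxin reductase 1 (TXNRD1), sulfiredoxin (SRXN1) and the thioredoxin-interacting protein (TXNIP). They were 10 of the 42067 gene names in the deposited tables, found by symbol, and each was represented by its transcript model of highest read count over the 4 libraries. These genes and the related lists below were chosen with earlier results of these data known. Counts of them beside the share of all genes are therefore descriptions, not tests. The samples were Huh7 cells, a human hepatocellular carcinoma cell line in long-established use, kept for 4 days either in medium with 300 µM hydrogen peroxide (H2O2) or in mock medium, with the medium of both groups renewed every day. There were 2 libraries per group, and in each group 1 title began with H and the other with Q, letters that the labels do not explain. Nothing in the labels stated that the libraries came from separate cultures, so a p-value measures only the spread between these libraries, which may be technical, and all results concern a single line.

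Peroxiredoxins are thiol peroxidases that reduce hydrogen peroxide with a reactive cysteine. The oxidised cysteine of most of them is reduced again by thioredoxin, which is in turn reduced by thioredoxin reductase at the expense of NADPH, so that the enzymes form a chain from NADPH to peroxide. Sulfiredoxin repairs peroxiredoxins whose cysteine has been overoxidised, and TXNIP binds reduced thioredoxin and inhibits it. In the liver, where peroxide is a by-product of mitochondrial, peroxisomal and drug metabolism, this chain works beside catalase and the glutathione peroxidases, and several of its genes are targets of the antioxidant transcription factor NRF2.

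The libraries held 78126878 to 88409567 mapped read mates, and the mapped share was 91.7% and 90.9% in H2O2 libraries H and Q, against 90.5% and 87.4% in mock libraries H and Q. Of the liver and liver tumour markers all 10 were measured, and their summed level was 22230 and 12780 CPM in H and Q of the H2O2 group, against 19190 and 6237 CPM in H and Q of the mock group. Mock library Q therefore had the lowest value on both measures. The blood cell markers PTPRC and CD3E did not exceed 0.273 CPM in any library. The other 2 of the 4 blood markers, both also expressed outside blood cells, were measured at 596 and 538 CPM for LYZ and 69.9 and 93.6 CPM for CD68 in H and Q of the H2O2 group, against 419 and 392 CPM for LYZ and 48.2 and 77.6 CPM for CD68 in H and Q of the mock group. The 4 markers summed to 666 and 632 CPM in the H2O2 libraries, against 467 and 470 CPM in the mock libraries, and the part of this in any result was not tested. The 4 stromal markers summed to 15.5 and 17.9 CPM in H and Q of the H2O2 group, against 20.0 and 25.4 CPM in H and Q of the mock group, nearly all of it COL1A1, and the endothelial markers to at most 2.91 CPM. These are bulk RNA samples, in which fewer cells of a type and less RNA per cell cannot be told apart.

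All 10 genes passed the filter on low counts, with no fewer than 4838 reads in any library, so counting error was small beside the spread between libraries. The fold change was above 0 for 9 of the 10 genes, for all 6 peroxiredoxins, TXN, SRXN1 and TXNIP, with a median log2 fold change of 0.21, whereas 47.2% of the 27514 genes tested were above 0, with a median of −0.029. No gene of the system passed the test over all genes (edgeR's quasi-likelihood test, adjusted p between 0.781 and 0.964), and neither did any other gene: 0% of the genes tested were called at an adjusted p of 5%. At an unadjusted p under 0.05 the test counted 1898 genes, or 6.9%, of which 0 were in this system. DESeq2 called 139 genes (0.505%) and limma on log2(FPKM + 1) called 0, and neither called a gene of the system. The number above 0 dropped to 6 of 10 without H2O2 library H and likewise without mock library Q, with medians of 0.021 and 0.033. Of all genes 45.5% and 50.4% were above 0 in these fits. Leaving out H2O2 library Q or mock library H kept 9 of 10 above 0, against 45.9% and 48.3% of all genes, and gave medians of 0.41 and 0.52.

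**Figure D1:**
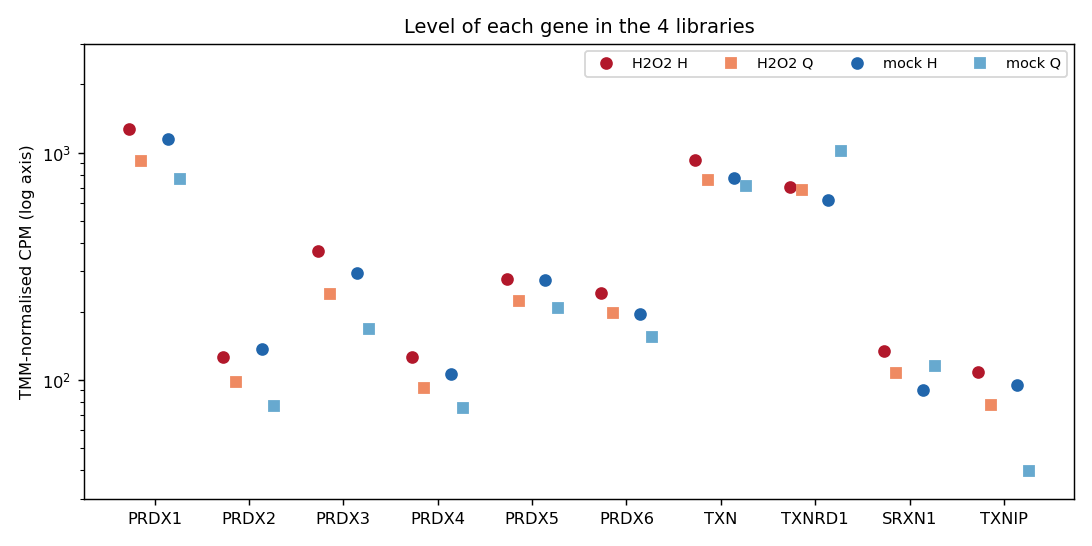
Level of each gene in the 4 libraries, in TMM-normalised CPM on a logarithmic axis (circles, libraries of letter H; squares, libraries of letter Q; red shades, H2O2; blue shades, mock). The points of the groups interleave for every gene but PRDX6, whose H2O2 values of 241 and 198 CPM lay just above its mock values of 195 and 155 CPM.

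Levels differed widely between the genes. Per kilobase of transcript, which is the scale used in this paragraph alone, TXN averaged 968 ± 139 CPM per kb in H2O2 libraries and 852 ± 47.2 in mock libraries (SD, n = 2 each). PRDX1 followed with 886 ± 198 CPM per kb in H2O2 and 774 ± 219 in mock, and its library values overlapped those of TXN in both groups. PRDX5 came next, at 281 ± 44.6 CPM per kb in H2O2 and 270 ± 53.0 in mock, below every library value of TXN and PRDX1. PRDX3, TXNRD1, PRDX6, PRDX2 and PRDX4 formed a middle range from 190 to 108 CPM per kb in H2O2, and from 191 to 90.5 in mock, where the order of TXNRD1 and PRDX3 and that of PRDX6 and PRDX2 was the other way round. In the H2O2 libraries TXNRD1 did not overlap PRDX6 and PRDX3 did not overlap PRDX5. The other neighbours in this range overlapped, as did all of them in the mock libraries. SRXN1 was at 44.7 ± 6.87 CPM per kb in H2O2 and 38.1 ± 6.54 in mock, and TXNIP at 31.8 ± 7.37 in H2O2 and 23.1 ± 13.3 in mock. These were the least abundant on this scale, and the values of each lay below those of the gene before it in both groups. The deposited FPKM values gave another order. There TXNRD1 (4243 and 4518 in H2O2 H and Q, 3459 and 6605 in mock H and Q) lay above PRDX5 (2974 and 2700, 2971 and 2467). TXNIP (480 and 375, 382 and 196) lay above SRXN1 (84.3 and 75.9, 56.3 and 79.7).

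The cytosolic peroxiredoxins PRDX1 and PRDX2 use 2 cysteines and depend on thioredoxin. PRDX1, on chromosome 1, measured 1266 and 921.5 CPM in libraries H and Q of the H2O2 group, against 1146 and 764.7 CPM in those of the mock group. H2O2 library Q thus lay under mock library H, and the groups overlapped (log2 fold change 0.20, SE 0.32, 95% interval −0.62 to 1.02, adjusted p = 0.89). PRDX2, on chromosome 19 and abundant in red blood cells, measured 127 and 98.1 CPM in the H2O2 libraries, against 137 and 76.6 CPM in the mock libraries. Its 2 mock libraries were the highest and the lowest of the 4 (0.073, SE 0.33, 95% interval −0.77 to 0.92, adjusted p = 0.964).

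PRDX3 and PRDX4 work in organelles. PRDX3, the mitochondrial peroxiredoxin, on chromosome 10, measured 368 and 238 CPM in libraries H and Q of the H2O2 group, against 294 and 168 CPM in those of the mock group. Within each letter the H2O2 library was the higher one, but the letter H mock library exceeded the letter Q H2O2 library (0.39, SE 0.37, 95% interval −0.55 to 1.33, adjusted p = 0.821). PRDX4, on chromosome X, resides in the endoplasmic reticulum and couples peroxide reduction to the folding of secreted proteins. It measured 126 and 91.7 CPM in the H2O2 libraries, against 107 and 75.3 CPM in the mock libraries, with the same order of libraries (0.26, SE 0.27, 95% interval −0.44 to 0.96, adjusted p = 0.837). Without H2O2 library H the fold changes of PRDX3 and PRDX4 were 0.041 and 0.013, and without mock library Q they were 0.039 and 0.028. They were highest without mock library H, at 0.86 and 0.54.

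PRDX5 and PRDX6 differ from the others in mechanism. PRDX5, on chromosome 11, forms its disulfide within 1 protein chain and is found in mitochondria, peroxisomes and cytosol. It measured 279 and 223 CPM in libraries H and Q of the H2O2 group, against 274 and 207 CPM in those of the mock group. Its log2 fold change was the smallest of the 10 genes in absolute value (0.061, SE 0.25, 95% interval −0.57 to 0.69, adjusted p = 0.959). PRDX6, on chromosome 1, has a single active cysteine, takes its electrons from glutathione in place of thioredoxin and also acts as a phospholipase. It measured 241 and 198 CPM in the H2O2 libraries, against 195 and 155 CPM in the mock libraries, so that its groups did not overlap, by a margin of under 3 CPM (0.33, SE 0.23, 95% interval −0.26 to 0.91, adjusted p = 0.781). It was the 1 gene of 10 with both H2O2 values above both mock values, a pattern seen in 18.1% of all genes tested, and 0 of 10 had both values below, against 21.3% of all genes. The groups of PRDX6 overlapped when RefSeq mRNAs alone were fitted. With 2 libraries against 2, an exact permutation test of a single gene cannot give a two-sided p under 0.333.

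SRXN1, on chromosome 20, reduces the overoxidised cysteine of PRDX1 to PRDX4 and is a known NRF2 target. It measured 134 and 107 CPM in libraries H and Q of the H2O2 group, against 90.4 and 115 CPM in those of the mock group. Mock library H was the lowest of the 4, and mock library Q lay between the H2O2 libraries (0.23, SE 0.23, 95% interval −0.36 to 0.81, adjusted p = 0.832). The log2 ratio of H2O2 over mock was 0.56 between the letter H libraries and −0.10 between the letter Q libraries.

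TXN, on chromosome 9, is the small cytosolic disulfide reductase that serves the peroxiredoxins, ribonucleotide reductase and methionine sulfoxide reductases. It measured 926.6 and 756 CPM in libraries H and Q of the H2O2 group, against 770 and 712 CPM in those of the mock group. Only H2O2 library H stood above both mock libraries on this scale (0.18, SE 0.24, 95% interval −0.43 to 0.79, adjusted p = 0.864). Its deposited FPKM values were 10960 and 10100 in the H2O2 libraries, against 9240 and 9406 in the mock libraries, and there, as with mapped mates as the library size, the groups did not overlap.

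TXNRD1, on chromosome 12, encodes the cytosolic selenoprotein that reduces TXN, and was the 1 gene of the 10 with a fold change below 0. It measured 709 and 687 CPM in libraries H and Q of the H2O2 group, against 617 and 1016 CPM in those of the mock group. The H2O2 libraries were close to each other, and the 2 mock libraries lay on either side of them (−0.23, SE 0.31, 95% interval −1.02 to 0.57, adjusted p = 0.872). Between libraries of letter H the log2 ratio was 0.20, and between those of letter Q it was −0.56. The fold change turned to 0.17 without mock library Q. Among the 8 genes of the system with RefSeq promoter windows (PRDX2, PRDX3, PRDX4, PRDX5, TXN, TXNRD1, SRXN1 and TXNIP, 11 windows in all), TXNRD1 was the 1 gene that held TGACNNNGC, the core of the antioxidant response element through which NRF2 acts. A window ran from 250 bases before a transcript start to 50 after it, both strands were searched, and 13.3% of all 35116 windows held the motif. The 2 windows of TXNRD1, chr12:104215529-104215828 and chr12:104286782-104287081 on the plus strand of GRCh38.p14, are shown because they were the 2 of 11 windows that held it. Whether the motif has a part in any difference between the libraries was not tested. The capitals mark the motif, which begins 99 and 8 bases before the start in the upper sequence, the second time on the reverse strand, and 102 bases before it on the reverse strand in the lower one.

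TXNRD1 upstream start: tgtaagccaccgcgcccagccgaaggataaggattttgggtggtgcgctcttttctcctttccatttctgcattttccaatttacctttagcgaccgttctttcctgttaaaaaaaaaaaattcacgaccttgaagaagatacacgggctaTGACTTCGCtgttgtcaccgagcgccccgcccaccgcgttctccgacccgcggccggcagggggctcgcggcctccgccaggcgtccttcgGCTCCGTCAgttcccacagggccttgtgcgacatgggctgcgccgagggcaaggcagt

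TXNRD1 downstream start: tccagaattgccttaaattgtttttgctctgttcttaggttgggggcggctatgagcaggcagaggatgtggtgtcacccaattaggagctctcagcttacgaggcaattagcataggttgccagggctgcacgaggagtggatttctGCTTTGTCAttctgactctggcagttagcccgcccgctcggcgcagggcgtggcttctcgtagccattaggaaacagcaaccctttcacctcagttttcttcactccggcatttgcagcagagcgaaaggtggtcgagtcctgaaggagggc

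TXNIP, on chromosome 1, is an alpha-arrestin that inhibits thioredoxin and limits glucose uptake, and its transcription follows glucose through the factors MondoA (MLXIP) and ChREBP (MLXIPL). It measured 108 and 77.8 CPM in libraries H and Q of the H2O2 group, against 95.1 and 39.9 CPM in those of the mock group. Mock library Q was far below the other 3, and mock library H lay between the H2O2 libraries (0.46, SE 0.45, 95% interval −0.67 to 1.59, adjusted p = 0.824). This was the largest fold change of the 10 genes and also the one with the largest SE. It was 1.23 without mock library H (adjusted p = 0.651) and −0.035 without mock library Q (adjusted p = 0.987). The sequence shown is the window of its upstream start, chr1:145996530-145996829 on the minus strand of GRCh38.p14, whereas the deposited tables placed the gene on the plus strand of their own build. The capitals mark its carbohydrate response element, a pair of CACGAG repeats with 5 bases between them, which begins 88 bases before the start. The motif was searched for after the sequence had been seen, and 2 of the 35116 windows (0.0057%) held it on either strand.

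TXNIP promoter: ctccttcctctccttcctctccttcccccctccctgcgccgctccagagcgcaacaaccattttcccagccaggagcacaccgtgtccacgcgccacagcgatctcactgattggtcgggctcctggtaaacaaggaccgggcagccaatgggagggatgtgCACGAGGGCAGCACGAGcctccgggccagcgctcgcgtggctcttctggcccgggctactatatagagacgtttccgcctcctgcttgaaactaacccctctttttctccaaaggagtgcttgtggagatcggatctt

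The E-box CACGTG occurred in the windows of PRDX3 and PRDX4, 157 and 83 bases before the start, and in 7.26% of all windows. It was not within the TXNIP windows, and no motif site in these windows overlapped another.

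**Figure D2:**
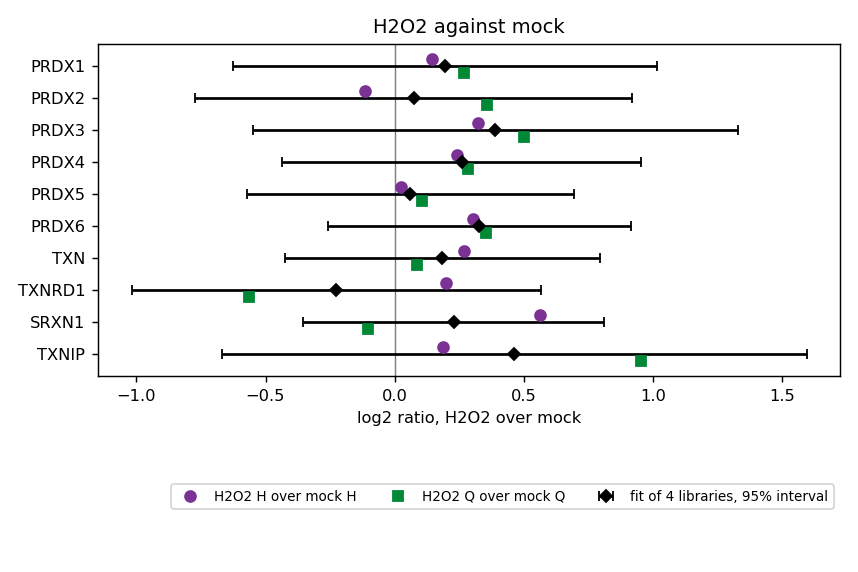
Log2 ratio of H2O2 over mock for each gene (black diamonds, fit of the 4 libraries with 95% intervals; purple circles, H2O2 H over mock H; green squares, H2O2 Q over mock Q). All 10 intervals include 0, and TXNRD1, SRXN1 and PRDX2 have ratios of opposite sign in the letters.

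The H2O2 library was the higher one within both letters for 7 of the 10 genes, PRDX1, PRDX3, PRDX4, PRDX5, PRDX6, TXN and TXNIP, and the lower one within both for 0. Over all genes tested these shares were 32.3% and 34.3%. The median log2 ratio of the 10 genes was 0.22 for letter H and 0.28 for letter Q, against −0.011 and −0.0090 over all genes. TXNIP (0.19 and 0.95 for H and Q) and PRDX2 (−0.11 and 0.36 for H and Q) had higher ratios between the Q libraries. SRXN1 (0.56 and −0.10 for H and Q) and TXNRD1 (0.20 and −0.56 for H and Q) had higher ones between the H libraries. Without regard to sign, the ratio of TXNRD1 was the larger between the Q libraries. Since each ratio rests on 1 library per group, none was tested.

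The 2 libraries of a group differed from each other in most of the 10 genes. The median absolute log2 difference between libraries Q and H was 0.34 among the H2O2 libraries and 0.54 among the mock libraries, against 0.22 and 0.26 over all genes. All 10 genes were lower in Q than in H among the H2O2 libraries, and 8 of 10 were among the mock libraries, where TXNRD1 (0.72) and SRXN1 (0.35) were higher in Q. Over all genes 51.6% were higher in Q in the H2O2 group and 52.4% in the mock group. The largest differences between mock libraries Q and H were those of TXNIP (−1.24), PRDX2 (−0.84) and PRDX3 (−0.80), the same library in which the mapped share and the summed level of the liver markers were lowest. Of those markers 8 of 10 were lowest in mock library Q, whereas TTR was highest there, and HNF4A lay above both H2O2 libraries. The part of these in the differences was not tested.

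**Figure D3:**
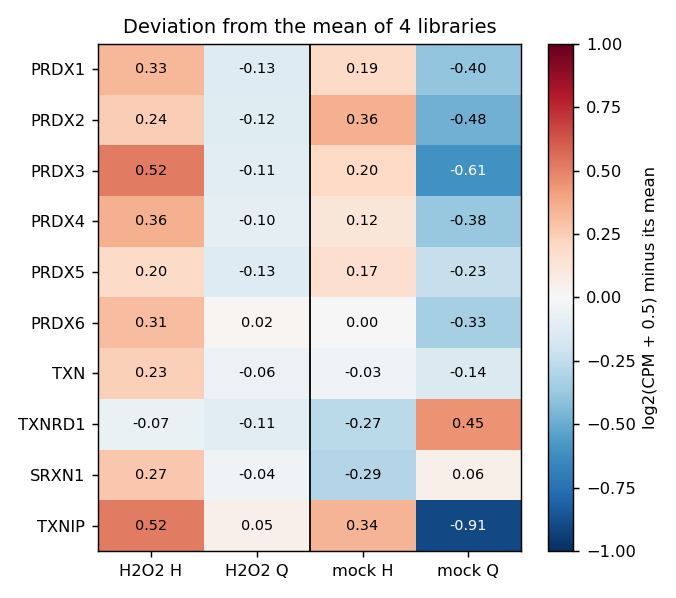
Log2(CPM + 0.5) of each gene minus its mean over the 4 libraries, H2O2 libraries left and mock libraries right of the line. The peroxiredoxins and TXNIP are lowest in mock library Q, TXNRD1 is highest there, and SRXN1 is lowest in mock library H.

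**Figure D4:**
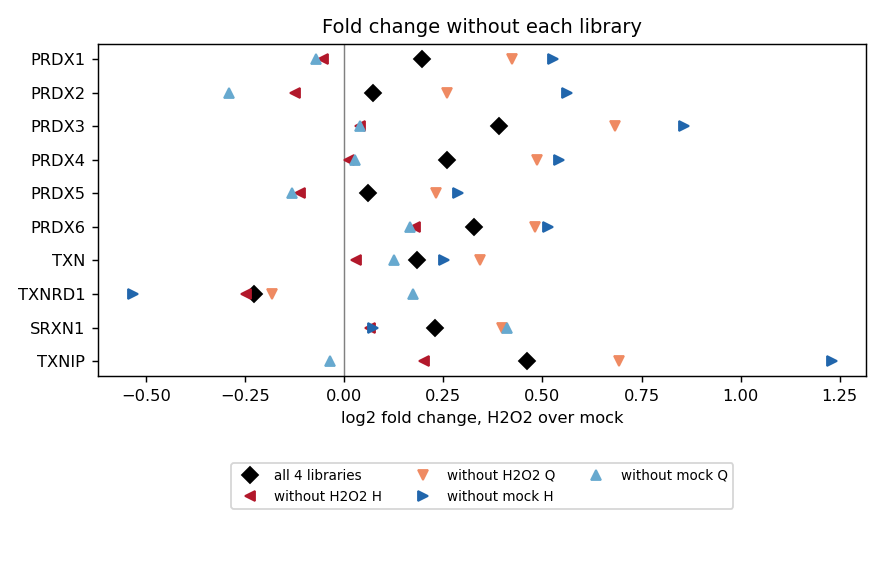
Log2 fold change of H2O2 over mock for each gene, from all 4 libraries (diamonds) and without each library in turn (triangles). Values shift to lower ones without H2O2 H for all 10 genes and without mock Q for 8 of them, and PRDX1, PRDX2, PRDX5, TXNRD1 and TXNIP change sign without at least 1 library.

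Transcript models added little to the description by gene. The 10 genes had 24 models, of which TXNRD1 had 7 and PRDX1 had 4, and reads were repeated between the models of a gene. The second model of PRDX2 carried 42.8% and 43.9% of the reads of the first in H2O2 libraries H and Q, against 42.6% and 42.8% in mock libraries H and Q. The shorter model of TXN carried 78.2% in both H2O2 libraries, against 78.0% in both mock libraries. The shortest of the 3 PRDX5 models carried 58.8% and 59.0% in the H2O2 libraries, against 59.1% and 59.0% in the mock libraries. Of all models the second one of PRDX2 had the widest range of this share over the libraries.

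Of 11 other thioredoxins, glutaredoxins and their reductases, 10 had a fold change above 0 and 1 below, with a median of 0.30, and 0 passed the test over all genes. The glutaredoxins GLRX (0.51, SE 0.28) and GLRX3 (0.40, SE 0.20), which work with glutathione, and TXNRD3 (0.37, SE 0.25), a reductase of thioredoxin and glutathione, had the largest values. The mitochondrial thioredoxin TXN2 had a value of 0.22 (SE 0.34) and its reductase TXNRD2 one of −0.31 (SE 0.33), while glutathione reductase, GSR, had one of 0.23 (SE 0.25). GLRX measured 41.8 and 30.7 CPM in libraries H and Q of the H2O2 group, against 30.3 and 20.7 CPM in those of the mock group. It was 1 of 4 genes of this list, GLRX3 and TXNRD3 among them, with both H2O2 values above both mock values. None had both values below, and over all genes tested the shares were 18.1% above and 21.3% below. Without H2O2 library H the number above 0 was 8 of 11, and without mock library Q it was 9, against 45.5% and 50.4% of all genes. The median of the list lay between 0.22 and 0.47 over the 4 fits that left out 1 library.

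**Figure D5:**
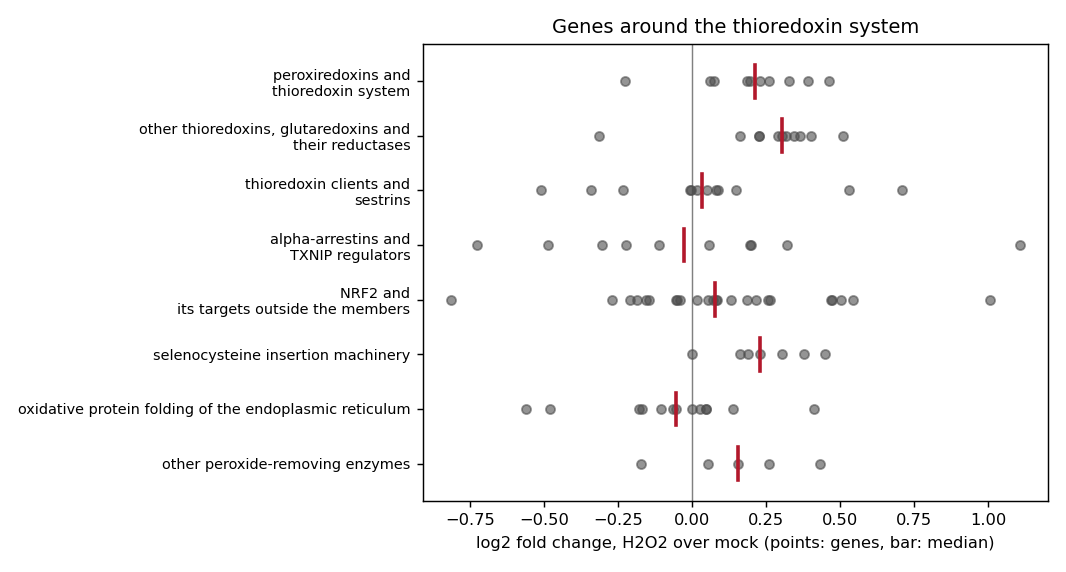
Log2 fold change of H2O2 over mock for the genes of the peroxiredoxin and thioredoxin system and of 7 related lists (points, genes that passed the filter on low counts; red bars, medians). The medians of other thioredoxins, of the selenocysteine machinery and of the 10 genes lie at 0.30, 0.23 and 0.21, and those of the alpha-arrestin list and of endoplasmic reticulum folding at −0.028 and −0.053.

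Proteins that thioredoxin reduces or binds, the other ribonucleotide reductase subunits and the sestrins had 7 of 12 genes above 0 and 5 below. The median was 0.034, and −0.022 with upper quartile factors, and 0 passed over all genes. The ribonucleotide reductase subunits RRM2 (0.71, SE 0.27, adjusted p = 0.719) and RRM1 (0.53, SE 0.23), which make deoxynucleotides for DNA synthesis, were the highest of them. The stress-induced sestrin SESN2 measured 66.7 and 75.5 CPM in libraries H and Q of the H2O2 group, against 101.2 and 101.4 CPM in those of the mock group (−0.51, SE 0.18, adjusted p = 0.719). Its groups did not overlap, and its value stayed between −0.58 and −0.42 without each library in turn. In this list 2 genes, RRM1 and RRM2, had both H2O2 values above both mock values, and 1, SESN2, had both below. Over all genes tested the shares were 18.1% above and 21.3% below. SESN1 (−0.23, SE 0.30) and SESN3 (0.018, SE 0.27), a pair of related sestrins, had groups that overlapped. Leaving out H2O2 library H gave this list a median of −0.19, and leaving out mock library Q one of −0.24. It was 0.21 when H2O2 library Q was left out and 0.29 when mock library H was.

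Among the alpha-arrestins and the regulators of TXNIP, 5 of 10 genes measured were above 0 and 5 below (median −0.028, and 0.0010 with RLE size factors), and 0 passed over all genes. ARRDC4, which like TXNIP is induced by glucose, measured 10.9 and 14.8 CPM in libraries H and Q of the H2O2 group, against 6.38 and 5.52 CPM in those of the mock group. Both H2O2 libraries were above both mock libraries (1.11, SE 0.26, adjusted p = 0.719), and the value ranged from 0.89 to 1.31 without each library in turn. ARRDC1, an alpha-arrestin of vesicle release, measured 14.8 and 14.6 CPM in the H2O2 libraries, against 22.2 and 26.4 CPM in the mock libraries (−0.73, SE 0.20, adjusted p = 0.719), also with no overlap. Here 5 genes had both H2O2 values above both mock values and 1 had both below, against 18.1% and 21.3% of all genes tested. ChREBP (MLXIPL, −0.30, SE 0.53) and the glucose transporter gene SLC2A1 (−0.49, SE 0.52) varied with the library, and the median of the list was 0.20 without mock library H, 0.19 without H2O2 library Q, 0.062 without mock library Q and −0.064 when H2O2 library H was left out.

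NRF2 and its targets outside the 10 genes had 15 of 24 above 0 and 9 below (median 0.075), and 0 passed over all genes. NFE2L2, which encodes NRF2, had a value of 0.082 (SE 0.28), and KEAP1, its inhibitor, one of −0.055 (SE 0.18). The largest values were those of the aldo-keto reductase AKR1C1, which shares sequence with other AKR1C genes (1.01, SE 0.44), the heme oxygenase HMOX1 (−0.81, SE 0.32) and the ferritin light chain FTL (0.54, SE 0.43). HMOX1 measured 33.5 and 60.3 CPM in libraries H and Q of the H2O2 group, against 79.8 and 84.9 CPM in those of the mock group. Its groups did not overlap, nor did those of AKR1C1, whereas those of FTL did. Of the 24 genes, 3 had both H2O2 values above both mock values and 1 had both below, against 18.1% and 21.3% of all genes tested. In this list 18 of 24 genes were higher in Q than in H among the mock libraries, against the 52.4% of all genes given above. Of the 10 genes of the system only TXNRD1 and SRXN1 shared that direction, and the other 8 were lower in Q. The 18 include NFE2L2 and KEAP1, whereas the targets NQO1, PGD, TALDO1, TKT, FTL and FTH1 were lower in Q. Among the H2O2 libraries 14 of 24 were higher in Q, against 51.6% of all genes, and TXNRD1 (−0.045) and SRXN1 (−0.31) were lower. GCLM, of glutathione synthesis, measured 77.7 and 87.6 CPM in libraries H and Q of the H2O2 group, against 44.5 and 93.1 CPM in those of the mock group. The cystine transporter gene SLC7A11 measured 55.9 and 62.6 CPM in the H2O2 libraries, against 39.0 and 92.1 CPM in the mock libraries, and mock library H was the lowest and mock library Q the highest of the 4, as for TXNRD1. NQO1, at 0.084 (SE 0.39), was lower in Q in both groups. The median of the list was −0.073 when mock library H was left out, 0.24 when mock library Q was, and 0.033 when either H2O2 library was.

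The machinery that inserts selenocysteine, which TXNRD1 needs, had 6 of 7 genes above 0 and 1 below (median 0.23), and 0 passed over all genes. Its largest values were those of the elongation factor EEFSEC (0.45, SE 0.28), the selenophosphate synthetase SEPHS2 (0.38, SE 0.27) and the kinase PSTK (0.30, SE 0.29). Leaving out H2O2 library H brought the list to 4 of 7 above 0 and a median of 0.031, and leaving out mock library Q to 4 of 7 and 0.078. Of all genes 45.5% and 50.4% were above 0 in these fits. The median was 0.40 and 0.41 when H2O2 library Q or mock library H was left out. Oxidative protein folding, in which PRDX4 takes part, had 5 of 13 genes above 0 and 8 below (median −0.053), and 0 passed over all genes. The oxidase ERO1A, which makes peroxide in the endoplasmic reticulum, measured 125 and 107 CPM in libraries H and Q of the H2O2 group, against 252 and 89.6 CPM in those of the mock group (−0.56, SE 0.49). The peroxidases GPX8 (−0.48, SE 0.83) and GPX7 (0.41, SE 0.23) of the same compartment had values of opposite sign. The median over all 13 genes was 0.088 when mock library H was left out, 0.049 when H2O2 library Q was, −0.065 when H2O2 library H was and −0.14 when mock library Q was. Of the other enzymes that remove peroxide, 4 of 5 were above 0 and 1 below (median 0.15), and 0 passed over all genes, with GPX3 at 0.43 (SE 0.21), GPX1 at 0.26 (SE 0.23), GPX2 at −0.17 (SE 0.24) and CAT at 0.15 (SE 0.34). Their median turned to −0.22 when H2O2 library H was left out and to −0.12 when mock library Q was, and was 0.40 and 0.49 when H2O2 library Q or mock library H was left out.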

How the data were processed

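RNA of Huh7 cells was measured in 2 H2O2 and 2 mock libraries. The submitters' processing notes list TopHat 1.3.3, Bowtie 0.12.2, Cuffdiff and CASAVA, and beside them GRCh37, hg19 and mm8 as builds, without saying what each was for. The sources used here do not give the annotation, the counting, the use of strand or the treatment of reads with several alignments, so reads shared with related genes, pseudogenes or antisense genes may be split or added. The deposited read counts were whole numbers for 58146 transcript models. The deposited FPKM values did not follow count over length. They served in alternatives and, for TXN and the order of levels, as a description.

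Genes kept by edgeR's filterByExpr (minimum count 10, minimum total 15) numbered 27514. TMM factors were 0.903, 1.06, 0.933 and 1.12 in H2O2 H, H2O2 Q, mock H and mock Q. The main comparison used edgeR 4.0.16 and its quasi-likelihood F test, two-sided, with treatment as sole term (2 residual and 3.2 prior degrees of freedom) and Benjamini-Hochberg adjustment at 5%, and was checked on simulated data. The SE is the log2 fold change over the root of F. Log2 ratios of single libraries used CPM plus 0.5. DESeq2 1.42.0 and limma 3.58.1 were alternatives. Lengths came from GENCODE v29 by RefSeq accession and promoters from RefSeq. The members and gene lists were chosen with earlier results of these data known. The text names all members and, of each related list, the 3 genes of largest absolute fold change and those set for their direct role. Outside this rule, PGD, TALDO1, TKT and FTH1 are named as NRF2 targets lower in mock library Q than in H. MLXIP is named as a regulator of TXNIP.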

Additional observations from a re-analysis of the deposited data

How the results depend on the processing

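Under 15 alternative settings, 0 genes of the system passed 5%, and 142 of 150 alternative fold changes of the 10 genes kept their sign. The 8 that reversed all came from leaving out 1 library, and the cause was not tested. Without H2O2 library H these were PRDX1 (−0.053), PRDX2 (−0.12) and PRDX5 (−0.11). Without mock library Q they were PRDX1 (−0.071), PRDX2 (−0.29), PRDX5 (−0.13), TXNRD1 (0.17) and TXNIP (−0.035). The other ends of their ranges came without mock library H: PRDX1 0.53, PRDX2 0.56, PRDX5 0.29, TXNRD1 −0.53 and TXNIP 1.23. Over the 4 settings that left out 1 library, 6 to 9 genes were above 0 and 1 to 9 had groups apart, where fewer libraries make separation easier, and 0 to 13 genes of the whole table passed 5%.

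DESeq2 called 139 genes over all those tested, and 9 passed with no filter on low counts, against 0 as reported. The number of the 10 genes with groups apart was 0 when RefSeq mRNAs alone were fitted, and 2 with mapped mates as library size, with limma on log2(FPKM + 1) and with limma on log2(FPKM + 0.1). The shares of all genes with groups apart, 18.1% above and 21.3% below, were obtained for the main fit alone. They were not obtained for these settings or for the fits without each library in turn. The counts of genes with groups apart in those fits therefore cannot be judged against all genes. With the title letter as a replicate block, 45 genes of the whole table passed. In this fit 5223 of the 27514 genes tested had an unadjusted p under 0.05. Of the 10 genes 3 were among these, PRDX3, TXNIP (adjusted p = 0.212) and PRDX6 (adjusted p = 0.25). The fit as reported had 0 of the 10 genes and 6.9% of all genes under that limit. With the block the lowest adjusted p of the 10 genes was that of PRDX3 (0.41, SE 0.14, adjusted p = 0.196). The deviations of same-letter libraries from their group means correlated at 0.603 across genes, which with 2 pairs does not establish a pairing, and the labels do not state one. With 2 libraries per group the number of libraries, not the read depth, limits the precision.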
